A study of Homo sapiens with 4 samples.

Results

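Antisense long non-coding RNAs were described in SEM cells recovered from the brain and from the spleen of transplanted mice. SEM is an established human B-cell precursor acute lymphoblastic leukaemia line with the KMT2A-AFF1 (MLL-AF4) fusion, which all libraries share. The members are the genes of GENCODE type lncRNA whose symbol ends in -AS, with or without a number, and whose mean level over the 4 libraries was at least 1 CPM (counts scaled to a common library total). There were 296 such genes among the 65217 genes of the count table, and 1823 genes had such a symbol at any level. The members were thus chosen by their measured mean level in these same libraries, so that their being expressed is no finding, whereas the difference between sites was not used. Just outside the limit lay UFD1-AS1 at 0.994 CPM and HNRNPK-AS1 at 0.997 CPM, and just inside it ITGA6-AS1 at 1.00 CPM and KANSL1L-AS1 at 1.01 CPM.

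Brain cells and spleen cells gave 2 libraries each, with the SEM cells as the human cells of both. Mice of 6 to 10 weeks received the cells, leukaemic cells were purified on a Ficoll gradient, and RNA of 5 mice was pooled for each library. The labels name no mouse strain. The replicate numbers 1 and 2 stand for independent occasions of the whole experiment, and p-values measure the spread between these pools. Gene counts summed to 36913437 and 33055465 for brain replicates 1 and 2 and to 32972842 and 26266136 for spleen replicates 1 and 2. A count of 0 therefore allows a level of up to 0.0813 to 0.114 CPM by counting error alone. Mouse transcripts took 2.24 and 1.45% of estimated counts in brain, against 4.31 and 6.32% in spleen, and their part in the results was not tested. Of the B-lineage markers, 9 (PAX5, CD79A, CD79B, EBF1, VPREB1, DNTT, RAG1, HOXA9 and MEIS1) summed to 2332 and 2368 CPM in brain, against 1854 and 1887 CPM in spleen. Of these, 6 were above spleen in both brain libraries, 2 (VPREB1 and HOXA9) below, and 1 overlapped. The 10 markers of other human cell types summed to 75.9 and 54.7 CPM in brain and to 38.1 and 32.6 CPM in spleen. Of that sum PECAM1 alone gave 72.6 and 51.3 CPM in brain and 33.4 and 28.7 CPM in spleen, while CD3E was at 0 in both brain libraries and MOG at 0 in both spleen libraries.

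An antisense RNA is transcribed from the strand opposite another gene, here called its sense gene. Some antisense RNAs begin near the sense gene's promoter and run away from or into it, others lie under its 3′ end, and single examples are known to act on the stability, splicing or transcription of the sense RNA. Many are kept scarce by nuclear exosome turnover. Because the exons of such a gene often lie opposite the exons of its sense gene, reads from both can be told apart only by strand. The libraries were made with a kit that keeps strand, per the labels' protocols, but the strand option used in counting is not given, so that values of members with shared exons are uncertain.

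A sense gene by name was found for 293 of the 296 members, and these were 292 different genes. HOXA-AS3, SLC9A3R1-AS1 and TRG-AS1 had none. By the transcripts that were counted, exons of 236 members lay opposite exons of the sense gene, and for 37 the gene bodies overlapped but the exons did not. Another 15 began within 1000 bases of the sense gene's start and ran away from it. The 4 members ATP8B1-AS1, DNAJC9-AS1, FOXD2-AS1 and LYRM4-AS1 lay further apart, and FAM131B-AS2 lay on the same strand as FAM131B. The full annotated spans can differ from this, and those of ATP8B1-AS1, LENG8-AS1 and OTUD6B-AS1 overlap their sense genes. The median member had 4 exons and 2926 exonic bases, of which 10.2% lay opposite exons of any other gene.

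Between the sites, few antisense RNAs differed beyond the spread of the libraries. ANXA2R-AS1, ITGA6-AS1, PDK1-AS1 and ZNF225-AS1 were higher in brain, and TUBA1B-AS1 and CERS6-AS1 were lower in brain, by edgeR's quasi-likelihood test adjusted over all 17075 genes tested. All 296 members passed the low-count filter. The level limit was met through a single site by the 23 members with a spleen mean under 1 CPM and by the 12 with a brain mean under 1 CPM, so that a difference in that direction was built into their choice. Of the called members, ITGA6-AS1 is among the 23 and CERS6-AS1 among the 12. The 4 higher members were 1.35% of the 296, against 1.63% of all genes tested that were called higher, and the 2 lower members were 0.676%, against 0.387% of all genes called lower. An unadjusted p under 0.05 was reached by 33 members (11.1%), against 20.6% of all genes and 12.7% of the 2237 other lncRNAs. The median log2 fold change of brain over spleen was 0.03 for members and 0.04 for all genes tested. Both brain values lay above both spleen values for 79 members, against 30.2% of all genes, and below them for 73 members, against 26.7%. The groups did not overlap for 51.4% of members and for 57.0% of all genes. With the occasion as a block, 13 members were called higher and 6 lower, against 7.48% and 3.37% of all genes. With column totals in place of TMM factors 1 was called higher and 1 lower, against 0.984% and 0.129% of all genes. Without spleen replicate 1 the counts were 37 higher and 23 lower, against 18.9% and 19.0% of all genes. Without spleen replicate 2 they were 9 higher and 14 lower, against 9.64% and 7.63% of all genes. In bulk RNA, fewer cells that make a transcript and less of it per cell cannot be told apart.

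**Figure D1:**
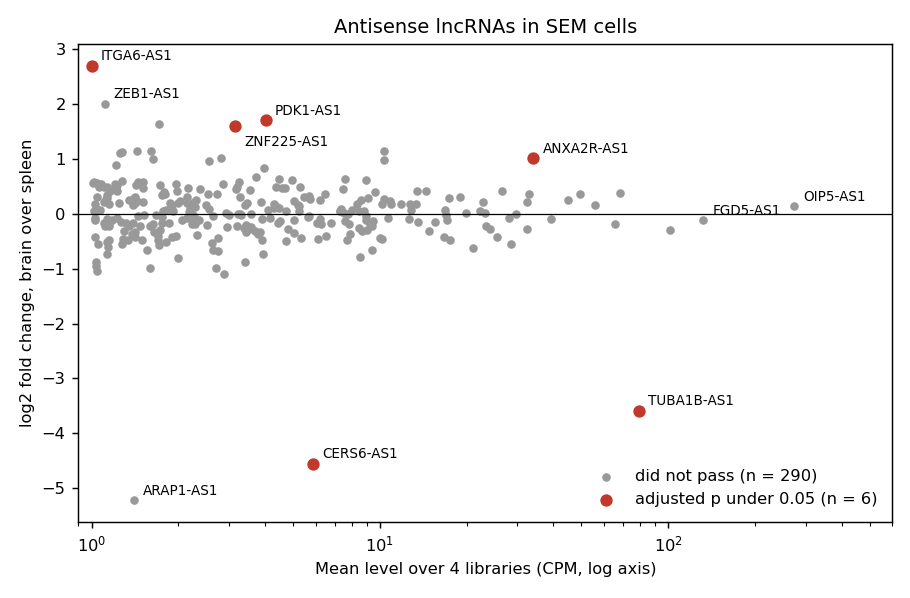
Each point is 1 of the 296 antisense RNAs, with its mean level over 4 libraries on the horizontal axis (CPM, log axis) and its log2 fold change of brain over spleen on the vertical axis. The 6 called members are red; TUBA1B-AS1 and CERS6-AS1 lie far below 0, as does ARAP1-AS1, which did not pass, and most members lie near 0.

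Spread between members narrowed with level. In the 108 members of 1 to 2 CPM the median size of the log2 fold change was 0.40 with a median SE of 0.35. In the 7 members of 50 CPM or more it was 0.19 with a median SE of 0.15. Called members occurred in every level class, 1 among the 108, 2 among the 85 of 2 to 5 CPM, and 1 in each of the other classes. Over all genes tested 1.63% were called higher and 0.387% lower, and counts this small do not tell the classes apart.

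PDK1-AS1 was the member whose sense gene changed with it. PDK1 encodes pyruvate dehydrogenase kinase 1, which restrains the entry of pyruvate into the mitochondrial citric acid cycle and is a known target of the hypoxia factor HIF-1. PDK1-AS1 had 6.57 and 5.68 CPM in brain, against 2.40 and 1.31 CPM in spleen. PDK1 had 86.5 and 76.3 CPM in brain, against 35.6 and 32.0 CPM in spleen. Both brain values were above both spleen values for each of these genes. The log2 fold change was 1.71 ± 0.32 (SE) for PDK1-AS1 with an edgeR adjusted p of 0.0443, and 1.27 ± 0.16 for PDK1 with an edgeR adjusted p of 0.0116. The ratio of PDK1-AS1 to PDK1 differed by a log2 of 0.28 ± 0.24 between brain and spleen (limma adjusted p = 0.517). The call of PDK1-AS1 was lost with scaling to column totals (edgeR adjusted p = 0.0769) and with a stricter low-count filter (edgeR adjusted p = 0.0631).

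The gene bodies of PDK1-AS1 (chr2:172480840-172556596, minus strand) and PDK1 (chr2:172555373-172608669, plus strand) overlap head to head on GRCh38, and 18.2% of the exonic bases of PDK1-AS1 lie opposite PDK1 exons. Their promoter windows, each 250 bases before to 50 after a RefSeq start on GRCh38.p14, are shown because these neighbours moved together. Capitals mark ACGTG or its reverse complement CACGT, the core letters of the element that HIF binds; both strands were searched, and both forms overlap where CACGTG occurs.
PDK1-AS1, chr2:172556415-172556714, minus strand: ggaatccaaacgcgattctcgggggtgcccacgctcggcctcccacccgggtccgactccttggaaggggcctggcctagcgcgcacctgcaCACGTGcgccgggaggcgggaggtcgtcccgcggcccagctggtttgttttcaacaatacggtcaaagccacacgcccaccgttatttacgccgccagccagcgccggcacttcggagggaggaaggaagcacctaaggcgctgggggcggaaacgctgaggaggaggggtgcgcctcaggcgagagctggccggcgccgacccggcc
PDK1, chr2:172555840-172556139, plus strand: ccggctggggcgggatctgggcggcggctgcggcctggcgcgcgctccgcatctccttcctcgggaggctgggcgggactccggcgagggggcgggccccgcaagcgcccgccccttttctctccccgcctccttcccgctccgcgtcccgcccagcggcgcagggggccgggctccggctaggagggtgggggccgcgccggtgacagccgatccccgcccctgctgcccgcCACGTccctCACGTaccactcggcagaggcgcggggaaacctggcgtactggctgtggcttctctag
The PDK1-AS1 window holds the overlapping pair from position -158, and the PDK1 window holds matches at positions -17 and -8, counted from the start at 1 with no position 0. A second PDK1 window in the table holds none. Of the 296 members 227 had a window, and ACGTG or CACGT was in 20.7% of the members' 270 windows and in 21.4% of all 35116 windows. The windows of ANXA2R-AS1, ITGA6-AS1, ZNF225-AS1 and TUBA1B-AS1 held no match. That of TUBA1B-AS1 (chr12:49131356-49131655, plus strand) does not cover the start of its main transcript at 49128011. The GC box letters GGGCGG or CCGCCC were in 58.9% of the members' windows and in 45.0% of all windows. The letters TATAA or TTATA were in 11.5% of the members' windows and in 20.4% of all windows.

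ANXA2R-AS1 was the most abundant of the members that were higher in brain. Its sense gene ANXA2R encodes a receptor of annexin A2. ANXA2R-AS1 had 43.7 and 47.0 CPM in brain, against 22.3 and 22.6 CPM in spleen. ANXA2R had 74.5 and 77.8 CPM in brain, against 67.7 and 74.5 CPM in spleen. The antisense values did not overlap between sites, whereas those of ANXA2R did. The log2 fold change was 1.02 ± 0.16 for ANXA2R-AS1 (edgeR adjusted p = 0.0247) and 0.10 ± 0.14 for ANXA2R (edgeR adjusted p = 0.729). The ratio of antisense to sense was higher in brain by a log2 of 0.90 ± 0.18, which did not pass (limma adjusted p = 0.103). ANXA2R-AS1 shares 3.56% of its exonic bases with exons on the other strand. Counted from its transcripts that share none, which held 30.6% of its counts, its log2 fold change was 0.80 with an edgeR adjusted p of 0.105. The call was also lost without brain replicate 1 (edgeR adjusted p = 0.0583) and without brain replicate 2 (edgeR adjusted p = 0.104).

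ITGA6-AS1 lies inside ITGA6 (chr2:172427354-172506459, plus strand), the gene of integrin alpha 6, a laminin receptor. ITGA6-AS1 had 1.97 and 1.46 CPM in brain, against 0.182 and 0.356 CPM in spleen. These levels rest on 73 and 50 counts in brain, against 6 and 9 counts in spleen. ITGA6 had 137 and 121 CPM in brain, against 114 and 59.5 CPM in spleen. Neither gene overlapped between sites, and spleen replicate 2 held the lowest ITGA6 value. ITGA6-AS1 met the level limit only through its brain values, so that its direction is not independent of its choice. It was higher by a log2 of 2.70 ± 0.46 (edgeR adjusted p = 0.0331), and ITGA6 differed by 0.57 ± 0.33 (edgeR adjusted p = 0.397). The call was lost with column totals (edgeR adjusted p = 0.0530), and transcripts with no shared exon, which held 80.6% of its counts, gave 2.70 with an edgeR adjusted p of 0.0697.

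ZNF225-AS1 begins opposite ZNF225, a zinc finger gene of chromosome 19. ZNF225-AS1 had 4.76 and 4.63 CPM in brain, against 1.85 and 1.23 CPM in spleen. ZNF225 had 11.3 and 10.5 CPM in brain, against 7.89 and 8.91 CPM in spleen. Brain was above spleen in every pair of libraries for both genes. ZNF225-AS1 was higher by a log2 of 1.59 ± 0.29 (edgeR adjusted p = 0.0407), and ZNF225 differed by 0.38 ± 0.20 (edgeR adjusted p = 0.316). Of its exonic bases 84.1% lie opposite exons of some gene, but only 1.69% opposite those of ZNF225. The call was lost with column totals (edgeR adjusted p = 0.0687) and with the stricter filter (edgeR adjusted p = 0.0552).

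**Figure D2:**
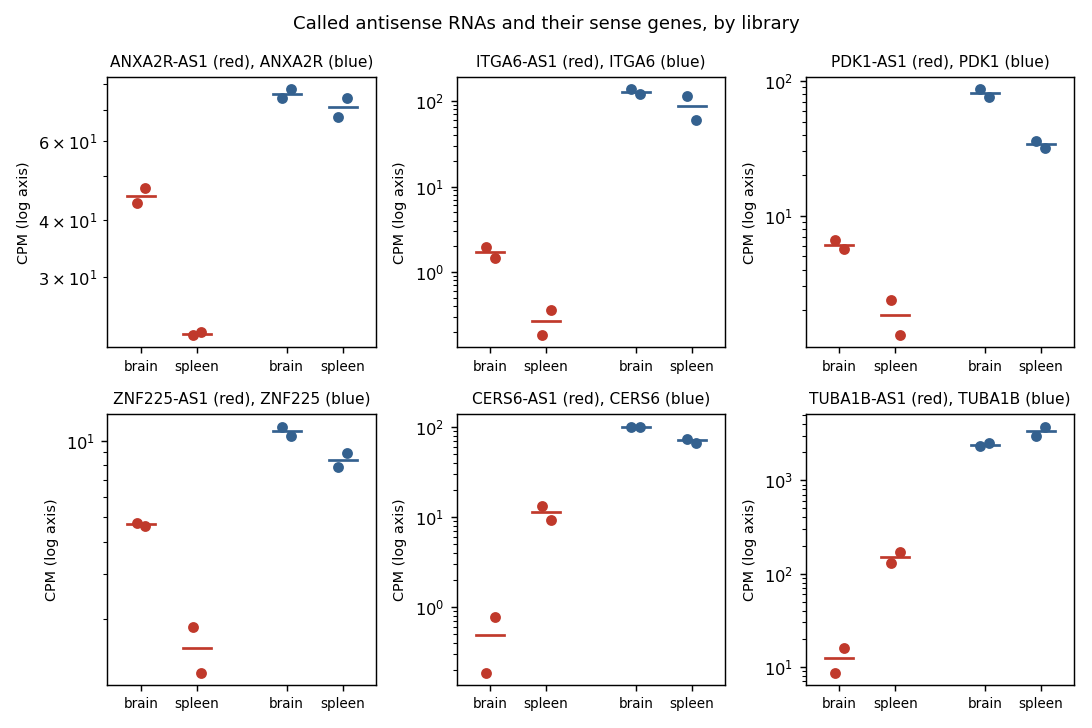
Each panel shows 1 called antisense RNA (red) and its sense gene (blue), with CPM per library on a log axis whose range differs between panels; dots are libraries and bars are means of 2 libraries. TUBA1B-AS1 has 8.71 and 16.1 CPM in brain against 129 and 169 CPM in spleen, while TUBA1B differs little on the same axis.

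TUBA1B-AS1 and CERS6-AS1 were lower in brain, and both lie largely opposite exons of the sense gene. TUBA1B encodes an alpha-tubulin of microtubules and was among the most abundant sense genes. TUBA1B-AS1 had 8.71 and 16.1 CPM in brain, against 129 and 169 CPM in spleen. TUBA1B had 2310 and 2479 CPM in brain, against 2998 and 3745 CPM in spleen. Both were lower in both brain libraries than in either spleen library. TUBA1B-AS1 was lower by a log2 fold change of -3.59 ± 0.36 (edgeR adjusted p = 0.0246), and TUBA1B differed by -0.49 ± 0.16 (edgeR adjusted p = 0.148). The log2 ratio of TUBA1B-AS1 to TUBA1B was -7.97 and -7.22 in brain, against -4.53 and -4.46 in spleen. The difference between the sites was -3.10 ± 0.29 (limma adjusted p = 0.0184). Leaving out spleen replicate 1 or spleen replicate 2 ended the call of TUBA1B-AS1 (edgeR adjusted p = 0.143 and 0.229).

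A single transcript held 96.3 and 95.6% of the TUBA1B-AS1 counts in brain and 97.8 and 87.3% in spleen. It was estimated at 310 and 526 counts in brain, against 4171 and 3734 counts in spleen. Of the exonic bases of TUBA1B-AS1, 80.2% lie opposite TUBA1B exons. Part of these counts may belong to either strand, and how many was not tested.

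CERS6 encodes ceramide synthase 6, which joins a fatty acid to a sphingoid base. CERS6-AS1 had 0.189 and 0.790 CPM in brain, against 13.4 and 9.38 CPM in spleen. CERS6 had 99.2 and 101 CPM in brain, against 74.6 and 67.4 CPM in spleen. The antisense RNA was below spleen and the sense gene above spleen in both brain libraries. CERS6-AS1 was lower by a log2 fold change of -4.55 ± 0.60 (edgeR adjusted p = 0.0413), on 7 and 27 counts in brain and 443 and 237 counts in spleen. CERS6 differed by 0.49 ± 0.14 (edgeR adjusted p = 0.118). The log2 ratio of CERS6-AS1 to CERS6 was -7.18 and -6.29 in brain, against -2.43 and -2.78 in spleen, a difference of -4.13 ± 0.34 (limma adjusted p = 0.0184). The edgeR call of CERS6-AS1 was lost with column totals (edgeR adjusted p = 0.0649), with the stricter filter (edgeR adjusted p = 0.0539) and with gene sums of the transcript files (edgeR adjusted p = 0.0597).

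Of the exonic bases of CERS6-AS1, 69.7% lie opposite CERS6 exons. Its main transcript had 0.000448 and 21.9 estimated counts in brain, against 355 and 168 in spleen. A second one had 1.08 and 2.46 estimated counts in brain, against 83.7 and 65.6 in spleen. The first exon of the main transcript lies beyond the end of CERS6 and is shown as sequence that is not shared with it (GENCODE release 44, GRCh38).
CERS6-AS1, chr2:168786357-168786429, minus strand: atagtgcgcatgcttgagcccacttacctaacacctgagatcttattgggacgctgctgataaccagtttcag
CERS6-AS1 itself had no window among the RefSeq promoters.

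Members were also divided by how much of their exons lies opposite exons of another gene, since reads there can be assigned only by strand. Over all genes tested, 1.63% were called higher and 0.387% lower. Of the 26 members with at least 50% of their exonic bases opposite exons of another gene, 1 was called higher (3.85%) and 2 lower (7.69%). Their median size of the log2 fold change was 0.46. Of the 270 members with a smaller share, 3 were called higher (1.11%) and 0 lower, with a median size of 0.26. By edgeR none of the 45 members without such a base was called. Of these 45, 4 (8.89%) had an unadjusted p under 0.05, against 20.6% of all genes, and the median size was 0.28. When members were counted only from transcripts with no exon opposite another gene, 129 could be tested and edgeR called 0 of them. In that fit 1.11% of all genes tested were called. Of the called members, CERS6-AS1 had 0% and PDK1-AS1 3.98% of its counts in such transcripts. The main transcripts of TUBA1B-AS1 and ZNF225-AS1 also have exons opposite another gene. They held at least 87.3% and 99.4% of the gene's counts in each library. For these genes this fit cannot decide whether the call depends on shared exons.

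**Figure D3:**
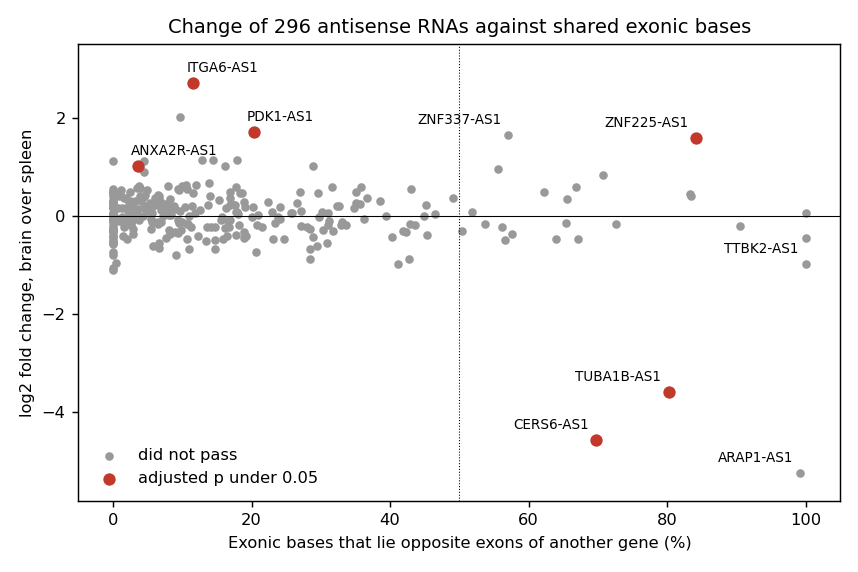
The horizontal axis is the percentage of a member's exonic bases that lie opposite exons of another gene and the vertical axis its log2 fold change of brain over spleen; the dotted line stands at 50%. TUBA1B-AS1 (80.2%), CERS6-AS1 (69.7%) and ARAP1-AS1 (99.2%) lie right of the line and low, and ITGA6-AS1, PDK1-AS1 and ANXA2R-AS1 lie left of it.

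Of 292 sense genes 273 were tested, of which 5 were called higher in brain and 2 lower, or 1.83% and 0.733%, against 1.63% and 0.387% of all genes. An unadjusted p under 0.05 was reached by 58 of them (21.2%), and their median log2 fold change was 0.10. Besides PDK1, the higher ones were ZEB1, a transcription factor of epithelial-mesenchymal transition, the zinc finger gene ZNF436, SREBF2, the master regulator of cholesterol synthesis, and KMT2E, a chromatin regulator. The lower ones were CD63, a tetraspanin of late endosomes, and the kinesin gene KIF25. With the occasion as a block, 22 sense genes were called higher and 6 lower, against 7.48% and 3.37% of all genes. With column totals 2 were higher and 0 lower, against 0.984% and 0.129% of all genes. With a GC and length trend removed they were 4 higher and 4 lower, against 2.37% and 1.28% of all genes. Leaving out spleen replicate 1 gave 78 higher and 57 lower of 276 tested, where 18.9% and 19.0% of all genes were called. Leaving out spleen replicate 2 gave 37 higher and 20 lower, where 9.64% and 7.63% of all genes were called.

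Of the 7 called sense genes, only PDK1 had an antisense RNA that was called too. ZEB1-AS1 did not pass and met the level limit only through its brain values, so that its direction is not independent of its choice. It had 2.05 and 1.49 CPM in brain, against 0.576 and 0.277 CPM in spleen. ZEB1 had 3.30 and 2.31 CPM in brain, against 0.789 and 0.435 CPM in spleen. Neither gene overlapped between sites. The log2 fold change was 2.01 ± 0.44 for ZEB1-AS1 (edgeR adjusted p = 0.0667) and 2.16 ± 0.39 for ZEB1 (edgeR adjusted p = 0.0396). With the occasion as a block ZEB1-AS1 passed (edgeR adjusted p = 0.000255). ZNF436-AS1 was also above spleen in both brain libraries, with 2.22 and 2.14 CPM in brain, against 1.09 and 1.07 CPM in spleen (log2 1.01 ± 0.30, edgeR adjusted p = 0.127).

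SREBF2 and KMT2E had fold changes of the opposite sign to those of their antisense RNAs, neither of which passed. SREBF2 had 439 and 463 CPM in brain, against 230 and 250 CPM in spleen (log2 0.91 ± 0.13, edgeR adjusted p = 0.0210). SREBF2-AS1 had 4.08 and 4.98 CPM in brain, against 5.40 and 6.89 CPM in spleen (log2 -0.44 ± 0.25, edgeR adjusted p = 0.349). KMT2E had a log2 fold change of 1.09 ± 0.19 (edgeR adjusted p = 0.0371), and KMT2E-AS1 one of -0.23 ± 0.24 (edgeR adjusted p = 0.616). The ratio of antisense to sense did not pass in either pair. CD63-AS1 had -0.37 ± 0.26 and KIF25-AS1 -0.66 ± 0.19, beside -0.99 ± 0.17 for CD63 and -1.78 ± 0.30 for KIF25.

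Over the 274 pairs in which both genes were tested, the log2 fold changes of antisense RNA and sense gene correlated with a Pearson r of 0.18 and a Spearman coefficient of 0.12. These are across genes measured in the same 4 libraries, and genes are not independent replicates. The sign was the same in 140 pairs (51.1%). For the 223 pairs with overlapping exons, where reads may be shared, the Pearson correlation was 0.22. For the 32 pairs whose bodies overlapped without shared exons it was -0.28, and the sign was the same in 34.4%. Among 3072 other pairs of genes on opposite strands the sign was the same in 57.2% and the Pearson correlation was 0.11. The ratio of antisense to sense was called in 2 of 274 pairs, TUBA1B-AS1 and CERS6-AS1, against 1.12% of the 3664 opposite-strand pairs tested by limma. It was called in 4 pairs with the occasion as a block, against 1.72% of all pairs tested, in 0 with a pseudocount of 0.1, against 0.628%, and in 30 without spleen replicate 1, against 7.91%.

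**Figure D4:**
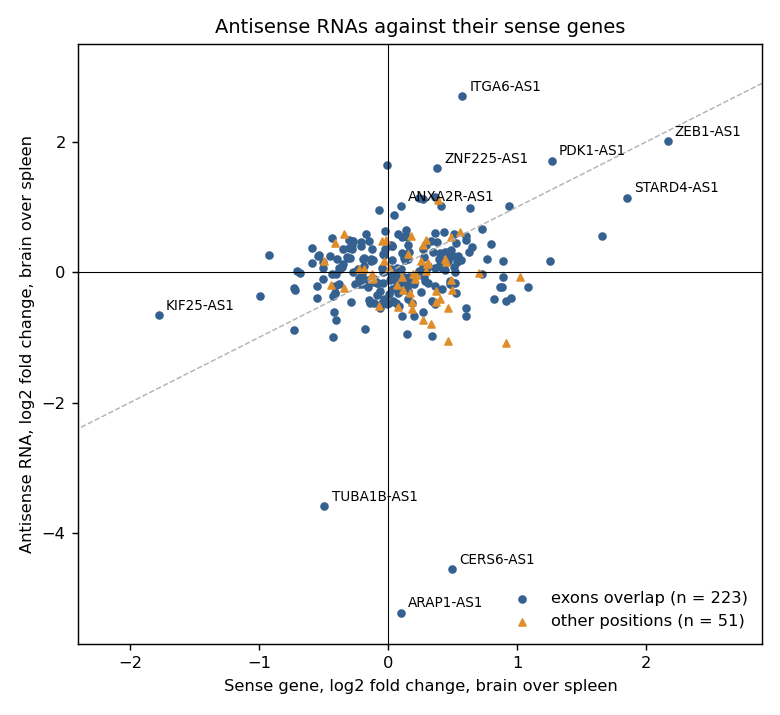
Each point is 1 of 274 pairs, with the log2 fold change of brain over spleen of the sense gene on the horizontal axis and of the antisense RNA on the vertical axis; the dashed line marks equal change. PDK1-AS1 and ZEB1-AS1 lie near that line in the upper right, while TUBA1B-AS1, CERS6-AS1 and ARAP1-AS1 lie far below it.

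Among members that did not pass, ARAP1-AS1 had the largest difference, though it met the level limit only through its spleen values. ARAP1 encodes a GTPase-activating protein for Arf. ARAP1-AS1 had 1 and 4 counts in brain, against 37 and 114 counts in spleen, that is 0.0270 and 0.117 CPM in brain, against 1.12 and 4.51 CPM in spleen. ARAP1 had 81.1 and 77.1 CPM in brain, against 66.9 and 81.0 CPM in spleen. The antisense values did not overlap, though the spleen values lay far apart. The log2 fold change was -5.23 ± 1.08 (edgeR adjusted p = 0.101), and 99.2% of the exonic bases lie opposite ARAP1 exons. It passed with the block (edgeR adjusted p = 1.16e-16), with DESeq2 (DESeq2 adjusted p = 6.09e-06) and with each library left out.

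Of the other 4 largest negative differences, PIK3CD-AS2 had 1.89 and 1.82 CPM in brain, against 4.34 and 3.56 CPM in spleen (log2 -1.09 ± 0.27, edgeR adjusted p = 0.0864). PIK3CD, the catalytic subunit delta of PI3-kinase that signals in B cells, had a log2 fold change of 0.91 ± 0.27 (edgeR adjusted p = 0.151). ATP2A1-AS1 had 1.70 and 1.93 CPM in brain, against 3.58 and 3.64 CPM in spleen (log2 -0.99 ± 0.27, edgeR adjusted p = 0.104). Brain lay below spleen in both of these antisense RNAs. SCUBE3-AS1 and TTBK2-AS1 had log2 fold changes of -1.05 ± 0.40 and -0.98 ± 0.54. SCUBE3-AS1 met the level limit only through its spleen values, so that its direction is not independent of its choice. With the block PIK3CD-AS2 and ATP2A1-AS1 passed (edgeR adjusted p = 0.0148 and 0.0332).

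Of the other 4 largest positive differences, STARD4-AS1 had 11.7 and 16.5 CPM in brain, against 8.16 and 4.51 CPM in spleen (log2 1.14 ± 0.33, edgeR adjusted p = 0.130). STARD4, which encodes a cholesterol transport protein, had 57.1 and 72.1 CPM in brain, against 24.8 and 10.8 CPM in spleen (log2 1.85 ± 0.45, edgeR adjusted p = 0.137). Both were above spleen in both brain libraries, and spleen replicate 2 was the lowest in both. ZNF337-AS1, HLA-F-AS1 and LIPT2-AS1 had log2 fold changes of 1.65 ± 0.83, 1.15 ± 0.38 and 1.14 ± 0.57, and in each of them spleen replicate 2 was the lowest library. HLA-F-AS1 met the level limit only through its brain values, so that its direction is not independent of its choice. With the block STARD4-AS1, ZNF337-AS1, HLA-F-AS1 and LIPT2-AS1 passed (edgeR adjusted p = 0.000345, 0.000122, 0.0332 and 0.0132). Members outside the naming rule that the block added were ARPP21-AS1, C1RL-AS1, CCDC18-AS1 and ELOA-AS1 as higher and SLC16A4-AS1 as lower, named after their values were seen. Of these, ARPP21-AS1 met the level limit only through its brain values, so that its direction was built into its choice.

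The most abundant members showed small differences, apart from TUBA1B-AS1. OIP5-AS1, the human counterpart of Cyrano, a conserved RNA known in mice to direct the decay of the microRNA miR-7, had 283 and 290 CPM in brain, against 265 and 255 CPM in spleen. FGD5-AS1 had 124 and 131 CPM in brain, against 139 and 138 CPM in spleen. CDK6-AS1 had 95.4 and 88.1 CPM in brain, against 112 CPM in each spleen library. The brain values of OIP5-AS1 lay above spleen and those of FGD5-AS1 and CDK6-AS1 below it, with log2 fold changes of 0.14 ± 0.13, -0.12 ± 0.13 and -0.29 ± 0.14 that did not pass. The sign of OIP5-AS1 turned to -0.49 when a trend on GC content and length was removed. PSMB8-AS1, whose sense gene encodes an immunoproteasome subunit, had 63.0 and 59.5 CPM in brain, against 64.6 and 74.8 CPM in spleen.

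In 3 abundant members spleen replicate 2 stood apart from spleen replicate 1. THAP9-AS1 had 74.1 and 78.7 CPM in brain, against 78.1 and 39.1 CPM in spleen. PSMA3-AS1 had 55.5 and 62.3 CPM in brain, against 63.1 and 41.7 CPM in spleen. GABPB1-AS1 had 46.8 and 63.6 CPM in brain, against 49.2 and 36.9 CPM in spleen. In each of them spleen replicate 2 was the lowest of the 4 libraries, while spleen replicate 1 lay among or above the brain values. The log2 fold changes of 0.38 ± 0.35, 0.17 ± 0.21 and 0.36 ± 0.21 did not pass. GABPB1-AS1 turned to -0.21 with a GC and length trend removed and to -0.47 from transcripts with no shared exon, and without spleen replicate 2 THAP9-AS1 turned to -0.0187 and PSMA3-AS1 to -0.0879. In the 60 members of lowest GC content, the median log2 deviation from a gene's mean over libraries was -0.29 in spleen replicate 2, against 0.11 in spleen replicate 1 and 0.09 and 0.12 in the brain libraries, and its part in these values was not tested.

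Other members with a described role also did not pass. BACE1-AS, known to stabilise the mRNA of the beta-secretase BACE1, had 1.22 and 1.20 CPM in brain, against 1.79 and 2.06 CPM in spleen (log2 -0.67 ± 0.31, edgeR adjusted p = 0.265). WT1-AS, opposite the WT1 transcription factor gene that leukaemias often express, had 15.0 and 15.7 CPM in brain, against 12.3 and 10.8 CPM in spleen (log2 0.41 ± 0.18, edgeR adjusted p = 0.247). In both the sites did not overlap. HOXA10-AS and HOXA-AS3, from the HOXA cluster that KMT2A fusions keep active, had log2 fold changes of 0.48 ± 0.24 and 0.00 ± 0.29. HOXA10 had 59.2 and 53.1 CPM in brain, against 64.2 and 72.4 CPM in spleen. The remaining 11 of these RNAs lay between -0.42 for ARRDC1-AS1 and 0.49 for SBF2-AS1. They were MCM3AP-AS1, CD27-AS1, MAPKAPK5-AS1, TMEM147-AS1, MEF2C-AS1, NUTM2A-AS1, NUTM2B-AS1, RUSC1-AS1 and PXN-AS1 besides those 2.

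Sorted by the symbol of the sense gene, 20 members had a zinc finger gene as partner, of which ZNF225-AS1 was called higher (5%) and 0 lower, with a median log2 fold change of -0.14. All genes tested were called at 1.63% higher and 0.387% lower. PDK1 and LIMD1 were the partners found in a short list of hypoxia and glycolysis genes, and CERS6 and SREBF2 those in a short list of lipid and sterol genes that does not hold STARD4. The prefixes meant for cytoskeleton genes took in TUBA1B, KIF25 and ARHGAP5 but also the kinase genes MAP3K4 and MAPKAPK5, so that no median is given for them. By position, all 6 called members were among the 236 with exons that overlap, a class that holds most of the 296 members. Of the 236, 1.69% were called higher and 0.847% lower, against 1.63% and 0.387% of all genes. Those 236 had a median of 0.05, the 37 with overlapping bodies only -0.02, and the 15 divergent ones -0.06.

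Per length, antisense RNAs were mostly scarcer than their sense genes. TPM, a level scaled by transcript length, had a median over pairs of 3.59 for the antisense RNA and 13.6 for the sense gene, over 291 pairs with values in the transcript files. The antisense RNA was above its sense gene in all 4 libraries in 73 pairs, in some libraries in 33, and in none in 185. CDK6-AS1 reached 491 and 495 TPM in brain and 542 and 482 TPM in spleen. CDK6, the cell cycle kinase gene opposite it, had 118 and 137 TPM in brain and 121 and 75.5 TPM in spleen. The antisense level was thus above the sense level in each library. OIP5-AS1 had 66.3 and 73.4 TPM in brain and 58.1 and 53.6 TPM in spleen, above OIP5 with 30.8 and 34.4 TPM in brain and 43.2 and 41.2 TPM in spleen. FGD5-AS1 had 50.4 and 57.0 TPM in brain and 50.9 and 43.3 TPM in spleen, while FGD5 had at most 0.0804 TPM in any library. Together the members took 0.240 and 0.256% of gene counts in brain and 0.260 and 0.235% in spleen.

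**Figure D5:**
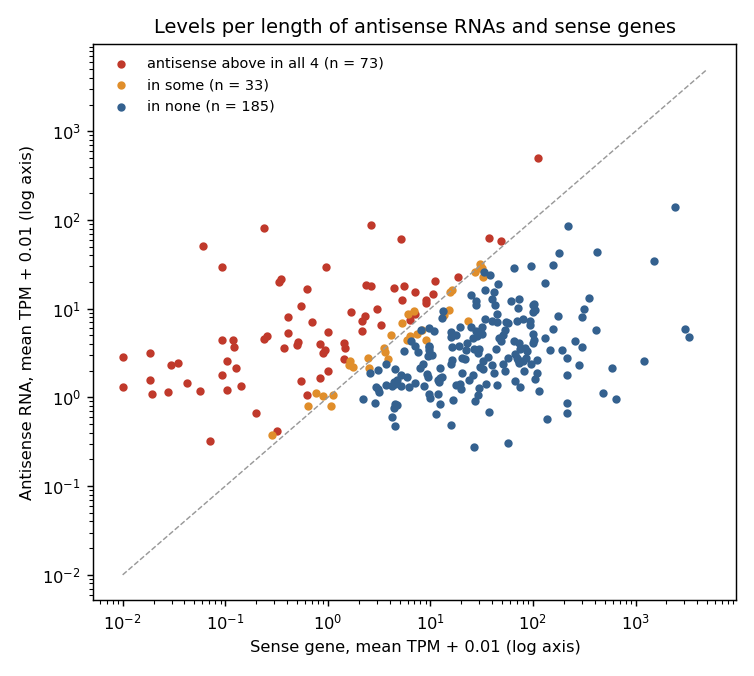
Mean TPM over 4 libraries of the sense gene (horizontal) and the antisense RNA (vertical) for 291 pairs, on log axes after adding 0.01; the dashed line marks equal levels. The 73 pairs with the antisense RNA above in all 4 libraries are red, the 33 mixed pairs orange, and the 185 with the sense gene above are blue.

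Related genes were compared by the same fit, in which 1.63% of all genes were called higher, 0.387% lower and 20.6% had an unadjusted p under 0.05. Of 250 antisense-named lncRNAs tested below the level limit, 0 were called higher and 1 lower (0.4%), with 23 at an unadjusted p under 0.05 (9.2%). Of 234 divergent transcripts, whose symbols end in -DT, 2 were called higher (0.855%) and 0 lower, with 10 at an unadjusted p under 0.05 (4.27%). Of 2237 other lncRNAs, antisense-named ones below the limit and divergent transcripts included, 10 were called higher (0.447%) and 22 lower (0.983%). The 27 listed genes of RNA turnover, processing and surveillance in nucleus and cytoplasm, the exosome subunits among them, held 0 called genes by edgeR. Of these 6 (22.2%) had an unadjusted p under 0.05, near the share of all genes. PABPN1, the nuclear poly(A)-binding protein, had the smallest p, with 224 and 246 CPM in brain, against 329 and 343 CPM in spleen (log2 -0.52 ± 0.13, edgeR adjusted p = 0.0959). The log2 fold changes of the 27 ran from -0.57 for EXOSC4 to 0.81 for XRN1.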

How the data were processed

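RNA of SEM cells from 2 brain and 2 spleen pools was sequenced. Per the submitters' processing notes, the tools were kallisto 0.42.4, cutadapt 1.5, bcl2fastq 1.8.4 and DESeq2, and the builds GRCh38 and GRCm38. No source used here gives the settings, the strand option or the annotation release. The authors deposited estimated counts per gene, rounded to whole numbers, and transcript files with estimated counts and TPM over both species; their log2 table was not used. In the count table and the log2 table together, 2 columns of values match no sample of the series and were not used.

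Symbols, positions and exons came from GENCODE release 44, which held 86.4% of the gene identifiers. Exon overlap and the position relative to the sense gene were computed from transcripts present in the deposited files. Brain was compared with spleen by edgeR 4.0.16 (quasi-likelihood, robust, TMM, filterByExpr; R 4.3.3) on the deposited estimated counts of all genes, with Benjamini-Hochberg adjustment over 17075 genes and a threshold of 0.05. CPM values between sites carry TMM factors, whereas the level of the membership rule was scaled to column totals. Antisense to sense ratios, log2 of CPM + 0.5 on both sides, were tested by limma 3.58.1 over all 3664 opposite-strand pairs. DESeq2 1.42.0 was an alternative. The smallest p of an exact permutation test over 2 and 2 libraries is 0.333. The scripts were tested on simulated data. Floors cover counting error only, whereas each ± SE includes the spread between libraries. The SE of an edgeR fold change was derived from that fold change and its F statistic.

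Replicate numbers mark shared occasions per the labels and were taken to pair libraries. Across genes, deviations from the site mean correlated between libraries of the same occasion with Pearson r = 0.0269 and a Spearman coefficient of -0.0149. Smaller p-values under the block were therefore given no added weight here. With 2 libraries per site, this correlation over all genes cannot exclude effects of the occasion on single genes. Such effects were not tested.

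Named were all called members, those with a called sense gene or called ratio, the 8 of highest mean CPM, the 5 largest differences in each direction that did not pass, and listed members with described roles. The members and lists were chosen with earlier results of these data known.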

Additional observations from a re-analysis of the deposited data

How the results depend on the processing

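Counts of calls in the order antisense higher, antisense lower, sense higher and sense lower in brain were 4, 2, 5 and 2. They were 1, 1, 2 and 0 with column totals, 10, 7, 23 and 11 without a low-count filter, and 2, 1, 2 and 1 with a stricter filter (minimum count 30). Over all genes, column totals gave 168 higher and 22 lower of 17075. Without a filter 1269 were higher and 854 lower of 34540, and with the stricter filter 183 and 30 of 14000. DESeq2 gave 6, 4, 7 and 7, gene sums of the transcript files 4, 1, 4 and 1, and removal of a GC and length trend 5, 3, 4 and 4. Over all genes, DESeq2 gave 531 higher and 411 lower of 34540. Transcript sums gave 283 and 56 of 16838, and the trend removal 398 and 214 of 16761. The replicate block that pairs libraries by occasion gave 13, 6, 22 and 6, and over all genes 1278 higher and 575 lower. Leaving out 1 library each gave 4 to 37 antisense RNAs higher and 3 to 23 lower, and 4 to 78 sense genes higher and 1 to 57 lower, in fits where the lone library of a site is assumed to vary like the others. Transcripts with no opposite-strand exon gave 0 and 0 among antisense RNAs, in a fit that called 1.11% of all genes tested.

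The trend removal moved the sense median to -0.0896, against 0.10 without it, and the median of all genes to -0.10, against 0.04 without it. Called ratios, 2 in all, were 0 with a pseudocount of 0.1, 4 with a pseudocount of 2, 4 with the replicate block, and 1 to 30 over the libraries left out. RLE factors changed none of these counts, and rule levels of 0.5 and 2 CPM gave 4 and 3 antisense RNAs higher and 2 lower each.

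Of the named members' log2 fold changes under the alternatives, 448 kept direction and side of the threshold, 50 newly passed, 14 no longer passed and 22 changed sign, all between values that did not pass. With the GC and length trend removed these were GABPB1-AS1 (-0.21), OIP5-AS1 (-0.49), HOXA-AS3 (-0.0657), TMEM147-AS1 (-0.0768) and NUTM2A-AS1 (-0.0405). With transcripts free of opposite-strand exons they were GABPB1-AS1 (-0.47), CD27-AS1 (-0.12) and NUTM2B-AS1 (0.25). HOXA-AS3 was -0.0314 with RLE factors, -0.0416 with DESeq2 and -0.0124 with the replicate block, and TMEM147-AS1 was -0.00962 with RLE factors and -0.0171 with DESeq2. Over the libraries left out, the range was -0.0879 to 0.45 for PSMA3-AS1, -0.0187 to 0.92 for THAP9-AS1, -0.28 to 0.24 for HOXA-AS3, -0.12 to 0.14 for TMEM147-AS1, -0.28 to 0.0147 for MEF2C-AS1 and -0.40 to 0.41 for RUSC1-AS1. The cause of these moves was not tested. Depth limits members near 1 CPM, whose spleen counts fall below 10 in ITGA6-AS1.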
